A study of Homo sapiens with 12 samples.

Results

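The 10 genes described here are parts of the endothelin and angiotensin systems, taken by symbol from the 78894 genes of the deposited table. They are the peptide precursors EDN1 and AGT, the converting enzymes ECE1 and ACE, the receptors EDNRA, EDNRB and AGTR1, the G protein alpha subunits GNAQ and GNA11, and the phospholipase PLCB1. AGT, the angiotensinogen gene, was higher in cells titled as given endothelin-1 than in cells without it. It was the 1 member called for endothelin-1 in a contrast where large and small libraries were balanced. That contrast was added later, and its small libraries held 10 AGT counts with both compounds and 1 with vehicle. The cells were cardiomyocytes differentiated from WTC-mEGFP-ACTN2-cl85, a human induced pluripotent stem cell line of 1 clone with a heterozygous green fluorescent tag on the C terminus of ACTN2, and were enriched by lactate feeding. All groups carry the tag. For 48 h they received 10 nM endothelin-1 plus 16 µM sacubitrilat, 10 nM endothelin-1 alone, 16 µM sacubitrilat alone, or DMSO vehicle, with 3 biological replicates in each of the 4 groups. Sacubitrilat is the active form of an inhibitor of neprilysin, a peptidase that cleaves natriuretic peptides, angiotensin peptides and endothelin-1.

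Endothelin-1 is made as a precursor by EDN1, trimmed by furin-type proteases and cut to its active form by the endothelin-converting enzyme ECE1. It binds the receptors encoded by EDNRA and EDNRB, which act through the Gq-class subunits encoded by GNAQ and GNA11 on phospholipase C beta enzymes such as PLCB1. Angiotensinogen is cut by renin and by angiotensin-converting enzyme (ACE) to angiotensin II, whose type 1 receptor (AGTR1) uses the same Gq route. Liver is the main source of circulating angiotensinogen, the heart makes some of its own, and endothelin-1 and angiotensin II both enlarge cultured cardiomyocytes.

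The added peptide and the peptide made by EDN1 share one sequence, so the stretch that encodes it is shown beside the stretch of AGT that encodes angiotensin II. Both were read from GENCODE v29 transcripts on GRCh38. The 21 residues of mature endothelin-1 lie in exon 2 of 5 of EDN1 (residues 53 to 73 of 212, chr6:12292433-12292495, plus strand), and capitals mark the codons of its 4 cysteines. The 8 residues of angiotensin II lie in exon 2 of 5 of AGT (residues 34 to 41 of 485, chr1:230710728-230710751, minus strand).
EDN1 codons of endothelin-1: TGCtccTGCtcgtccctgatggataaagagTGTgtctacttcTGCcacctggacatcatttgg
AGT codons of angiotensin II: gaccgggtgtacatacaccccttc

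The start regions of the same precursor genes are also shown. Both genes were higher with endothelin-1 than with vehicle, where vehicle held 2 EDN1 counts and 1 AGT count. The start regions come from RefSeq (GRCh38.p14), which held windows for 7 of the 10 members. The EDN1 window is the 250 bases before the start (chr6:12290111-12290360, plus strand). For AGT the last 30 bases before the RefSeq start are shown (chr1:230714123-230714152, minus strand), since that start lies 175 bases inside the first exon of the GENCODE transcript. Capitals mark TATAAA and, in EDN1, TTATCT, the reverse complement of the GATA motif AGATAA. Matches were sought on both strands.
EDN1 upstream: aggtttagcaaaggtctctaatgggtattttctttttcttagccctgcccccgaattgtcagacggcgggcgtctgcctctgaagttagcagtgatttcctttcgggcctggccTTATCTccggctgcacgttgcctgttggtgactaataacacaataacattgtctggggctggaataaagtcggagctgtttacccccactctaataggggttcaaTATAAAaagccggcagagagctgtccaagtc
AGT upstream: TATAAAtagggcatcgtgacccggccgggg

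TATAAA lies at positions -31 to -26 of EDN1 and -30 to -25 of AGT, counted back from the RefSeq start, and TTATCT lies at -136 to -131 of EDN1. Of the 35116 RefSeq windows, 10.7% held TATAAA and 9.17% held AGATAA on either strand. Neither TGANTCA (6.57% of windows), CCAAT (32% of windows) nor GGGCGG (42.6% of windows) was found in the 250 bases of EDN1 or AGT. These matches are descriptions of the letters. Binding was not tested, and other forms of these motifs were not sought.

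The libraries fell into classes of unequal size. The 6 libraries with both compounds or vehicle held 80844 to 316932 counts and the 6 libraries with a single compound 1268308 to 1953122, a 10.1-fold difference of mean totals. In the small libraries 1 count was therefore a large step, and 3 counts stood for 9.47 to 37.1 CPM (each count scaled to a common library total), against 1.54 to 2.36 CPM in the large ones. The pairs of like total are endothelin-1 with sacubitrilat and the combination with vehicle. Every other pair sets large libraries against small ones, and there compound and total cannot be told apart. For the 6 libraries given a single compound, a line of the description contradicts the title and names the compound they did not receive; the title and the treatment label were followed. All 12 cardiomyocyte markers were detected in every group, with summed levels of 13030 to 19810 CPM with both compounds, 20930 to 22020 with endothelin-1, 14810 to 15500 with sacubitrilat and 8640 to 15550 with vehicle. Summed fibroblast markers stood at 2120 to 4651, 6934 to 7802, 7232 to 7573 and 1942 to 5233 CPM in the same groups. Summed smooth muscle and pericyte markers stood at 939.5 to 2279, 3710 to 3734, 2917 to 2960 and 522.6 to 2156 CPM. Summed epicardial markers stood at 333.8 to 407.6, 150.6 to 162.9, 318.8 to 371.2 and 274.5 to 531.9 CPM. Mitochondrial genes took 12.8% to 17.6% of the counts with both compounds, 20.1% to 20.2% with endothelin-1, 14.99% to 17.2% with sacubitrilat and 11.4% to 22.1% with vehicle, and long noncoding RNAs took 5.2% to 5.62% in the large libraries and 7.6% to 10.9% in the small ones. The part of these shifts in the member values was not tested. In such bulk samples fewer cells of a type and less RNA per cell cannot be told apart.

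Of the 10 members, 9 had a count in at least 1 library and 7 had enough counts to be tested. Each comparison was made with edgeR's quasi-likelihood test over 11203 genes, and a gene was called when its Benjamini-Hochberg adjusted p was under 0.05. Between libraries of like total, 3 members were higher and 1 lower with endothelin-1 than with sacubitrilat (6.44% and 4.78% of all genes tested), and none was called with both compounds against vehicle (0.179% of all genes). With both compounds against vehicle 2 members had an unadjusted p under 0.05, and neither DESeq2 nor limma-voom called any. Between large and small libraries, 5 members were called with endothelin-1 against vehicle, all of them higher (23.2% of genes were called, 1231 higher and 1365 lower), and 3 were higher with sacubitrilat than with vehicle (8.68%). With both compounds, 5 were lower than with endothelin-1 (17.8%), and 4 were lower and 1 higher than with sacubitrilat (17.8% and 17.2%). The median log2 fold change of the 7 members was 0.55 with endothelin-1 against sacubitrilat, beside -0.01 over all genes, and 1.08 with endothelin-1 against vehicle, beside 0.10. It was -1.44 with both compounds against endothelin-1, beside -0.23. The endothelin-1 and sacubitrilat libraries enter several of these comparisons, as do the vehicle libraries, so the counts are not independent of each other.

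**Figure D1:**
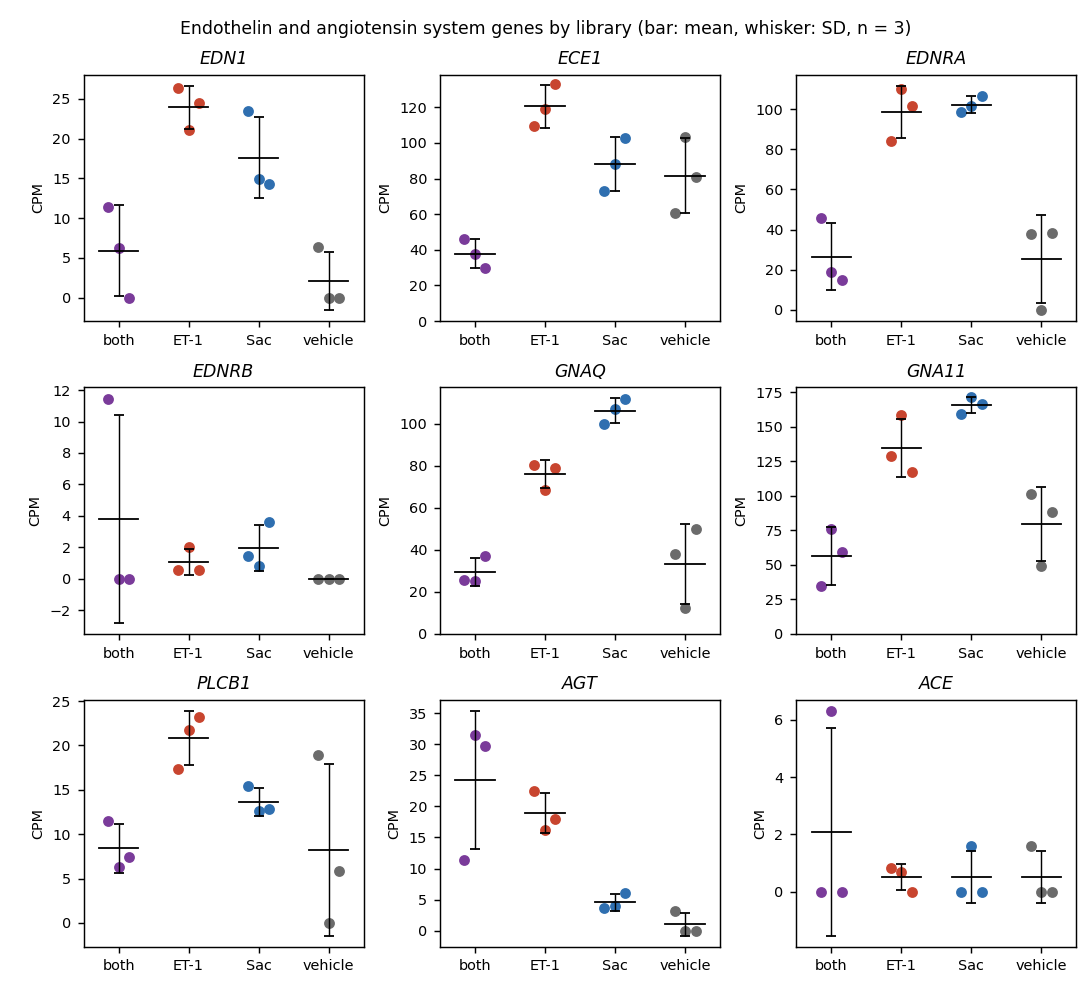
Level of 9 members in each library (vertical axis, CPM) with both compounds, endothelin-1 (ET-1), sacubitrilat (Sac) and vehicle; points are libraries, bars are means and whiskers are 1 SD over 3 libraries. AGT is high in the groups with endothelin-1, while EDN1, EDNRA, GNAQ and GNA11 are high in the groups given a single compound.

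EDN1 (ENSG00000078401, chr6:12290363-12297194 on GRCh38, plus strand), the gene of the endothelin-1 precursor, was nearly undetected in the small libraries. Its level was 11.5, 6.30 and 0 CPM with both compounds, 26.4, 21.0 and 24.4 CPM with endothelin-1, 23.5, 15 and 14.3 CPM with sacubitrilat, and 6.31, 0 and 0 CPM with vehicle. These levels rest on 2, 120, 79 and 2 counts in the same order of groups. EDN1 passed the count filter for testing only through libraries with a single compound, where its level was high. The endothelin-1 libraries lay above all vehicle libraries and above all libraries with both compounds, and they overlapped the sacubitrilat libraries. EDN1 was higher with endothelin-1 than with vehicle by 2.76 ± 0.74 on the log2 scale (SE, adjusted p = 0.00555 by edgeR, higher in 3 of 3 libraries), a count ratio of 6.86 with a 95% interval of 1.86 to 57.3. With both compounds it was lower than with endothelin-1, at -2.21 ± 0.80 (adjusted p = 0.0302), a count ratio of 0.218 with an interval of 0.0261 to 0.803. That call was lost without replicate 2 of both compounds (-2.63, adjusted p = 0.0655), without replicate 3 (-1.76, adjusted p = 0.127) and in DESeq2 (adjusted p = 0.0821).

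The other EDN1 comparisons between pairs of groups missed the threshold. Sacubitrilat against vehicle gave 2.16 ± 0.81 (adjusted p = 0.0533), which passed, among other settings, with the replicate number as a block (2.26, adjusted p = 0.0466), with RLE scaling (2.19, adjusted p = 0.0483) and without vehicle replicate 1 (6.97, adjusted p = 0.0283), which leaves vehicle at 0 counts. Endothelin-1 against sacubitrilat, at like totals, gave 0.60 ± 0.22 (adjusted p = 0.0754). It passed when these 2 groups were fitted alone (adjusted p = 0.0399) and, with the genes of the full fit kept, without sacubitrilat replicate 1 (0.85, adjusted p = 0.0257) or vehicle replicate 2 (0.62, adjusted p = 0.0474). With both compounds against vehicle the 95% interval of EDN1 ran from -2.29 to 3.40. Endothelial cells are the main vascular source of this peptide. The 10 endothelial markers summed to 14.8 to 57.3 CPM with both compounds, 28.7 to 31.4 with endothelin-1, 37.9 to 45.1 with sacubitrilat and 34.7 to 37.1 with vehicle. CDH5 was at 0 in all groups but sacubitrilat, which held 1 count. Others of the list were detected, with 6, 98, 118 and 10 counts of EGFL7 in the same order of groups. KDR had 0, 26, 34 and 0 counts and TEK 0, 10, 22 and 4.

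ECE1 (ENSG00000117298, chr1:21217247-21345572, minus strand), whose product cuts big endothelin-1 to the active peptide, had its lowest levels with both compounds. It stood at 45.8, 37.8 and 29.6 CPM with both compounds, 110, 119 and 133 CPM with endothelin-1, 72.7, 88.3 and 103 CPM with sacubitrilat, and 60.7, 103 and 81.0 CPM with vehicle. Every endothelin-1 library lay above every other library, and every library with both compounds lay below every other library. At like totals ECE1 was higher with endothelin-1 than with sacubitrilat by 0.55 ± 0.12 (SE, adjusted p = 0.00149 by edgeR, 3 of 3 libraries), and 0.57 in limma-voom (adjusted p = 0.0578). With both compounds against vehicle it gave -0.98 ± 0.48, with an unadjusted p of 0.047 and an adjusted p of 0.426.

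Against the small libraries ECE1 was higher with endothelin-1 than with vehicle (0.77 ± 0.25, adjusted p = 0.0226), and with both compounds it was lower than with endothelin-1 (-1.74 ± 0.36, adjusted p = 2.55e-04) or sacubitrilat (-1.20 ± 0.39, adjusted p = 0.0148). The call against vehicle was lost without endothelin-1 replicate 3 (0.62, adjusted p = 0.0702), without vehicle replicate 1 (0.78, adjusted p = 0.0853) and when the 2 groups were fitted alone (0.68, adjusted p = 0.0523), and with the genes of the full fit kept also without vehicle replicate 3 (0.84, adjusted p = 0.057). The call of both compounds against sacubitrilat was lost without sacubitrilat replicate 3 (-0.94, adjusted p = 0.0572), and with the genes kept also without replicate 2 (-1.27, adjusted p = 0.0608) or 3 (-1.06, adjusted p = 0.0879) of both compounds. Sacubitrilat against vehicle gave 0.22 ± 0.27 (adjusted p = 0.594). ECE1 overlaps 2 antisense genes in GENCODE v29, and the strand setting of the counting is not given in the sources used here.

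**Figure D2:**
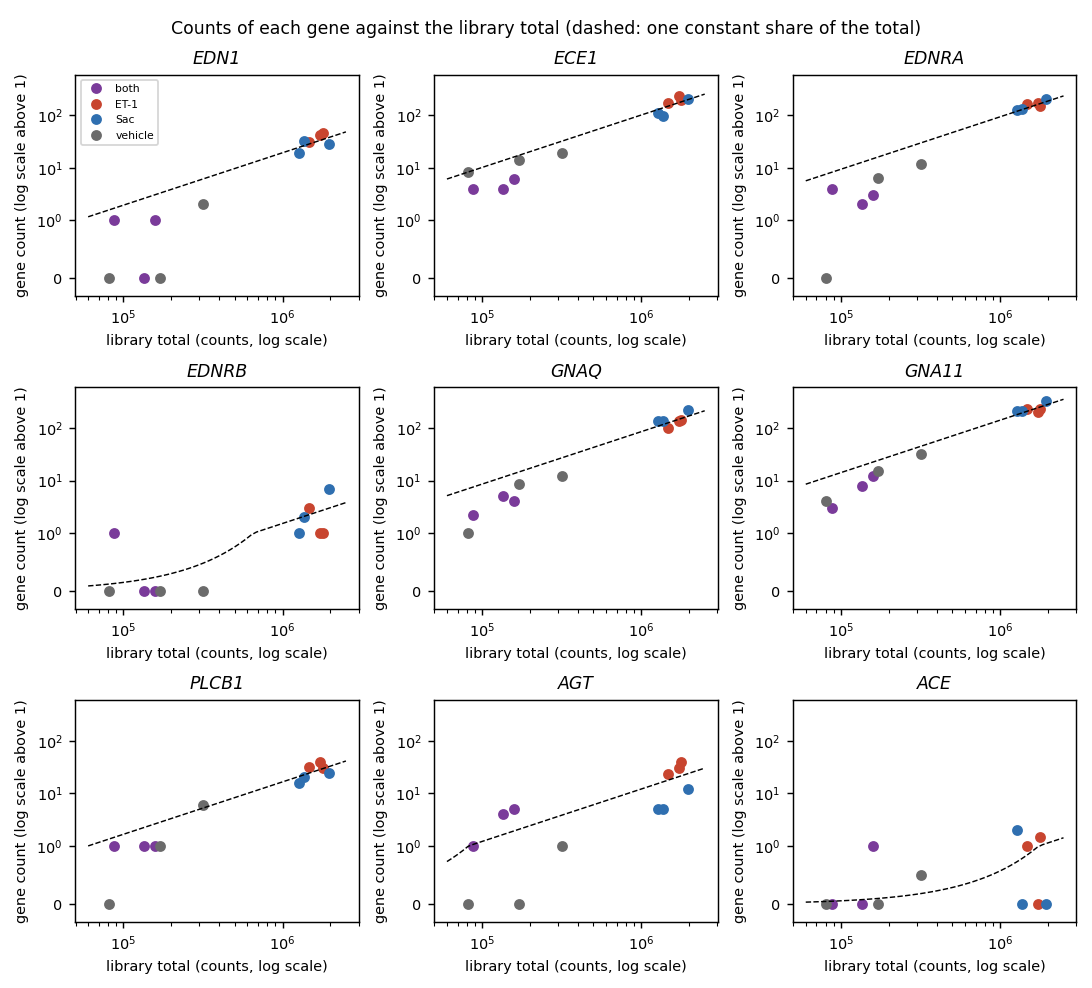
Counts of 9 members in each library (vertical axis, log scale above 1) against the total count of the library (horizontal axis, log scale); the dashed line is a constant share of the total. EDN1, EDNRA, GNAQ and GNA11 fall under the line in the small libraries with both compounds or vehicle, while AGT lies above it in 2 libraries with both compounds and on it in the other, above it with endothelin-1, and below it with sacubitrilat and vehicle.

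EDNRA, which encodes the endothelin receptor of cardiomyocytes and smooth muscle, was higher in both single-compound groups than in the other 2 groups. EDNRA (ENSG00000151617, chr4:147480917-147544954, plus strand) stood at 45.8, 18.9 and 14.8 CPM with both compounds, 84.2, 110 and 101 CPM with endothelin-1, 98.4, 102 and 107 CPM with sacubitrilat, and 37.9, 0 and 38.1 CPM with vehicle. The single-compound libraries did not overlap the others, and they overlapped each other. The log2 fold change against vehicle was 1.66 ± 0.34 with endothelin-1 (SE, adjusted p = 3.35e-04 by edgeR) and 1.61 ± 0.34 with sacubitrilat (adjusted p = 6.37e-04), each in 3 of 3 libraries. With both compounds it was lower than with endothelin-1 (-2.08 ± 0.44, adjusted p = 3.08e-04) and than with sacubitrilat (-2.03 ± 0.44, adjusted p = 4.44e-04). These calls held without each library in turn.

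At like totals EDNRA was not called. Endothelin-1 against sacubitrilat gave 0.05 with a 95% interval of -0.20 to 0.30, and both compounds against vehicle gave -0.42 with an interval of -1.72 to 0.88. The summed fibroblast and smooth muscle markers were also higher in the single-compound libraries than in the others. Single markers of these lists, among them THY1, FBLN1 and DES, did not follow that split. The part of these markers in the EDNRA values was not tested. EDNRA overlaps 2 genes on the same strand, an unconfirmed transcript and a pseudogene, and reads shared with them cannot be told apart.

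EDNRB (ENSG00000136160, chr13:77895481-77975529, minus strand), the receptor known best from endothelial and neural crest cells, had 1, 5, 10 and 0 counts in the groups with both compounds, endothelin-1, sacubitrilat and vehicle. It was too low to test, and its levels were at most 11.5 CPM, which is 1 count in the smallest library with both compounds. Of the counts of the 2 receptor genes, EDNRA held 90% with both compounds, 99.0% with endothelin-1, 97.9% with sacubitrilat and 100% with vehicle, with exact 95% intervals of 55.5% to 99.8%, 97.6% to 99.7%, 96.2% to 99.0% and 81.5% to 100%. A 3′-end count is taken once per transcript end and not per length, so these are shares of counts and not of protein. The intervals cover counting error only.

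GNAQ and GNA11 encode the Gq-class alpha subunits that couple these receptors to phospholipase C beta, and both were highest with sacubitrilat. GNAQ (ENSG00000156052, chr9:77716087-78031458, minus strand) stood at 25.8, 25.2 and 37.1 CPM with both compounds, 80.5, 68.5 and 79.1 CPM with endothelin-1, 99.9, 107 and 112 CPM with sacubitrilat, and 37.9, 12.4 and 49.8 CPM with vehicle. GNA11 (ENSG00000088256, chr19:3094410-3124004, plus strand) stood at 34.4, 75.6 and 59.3 CPM with both compounds, 129, 158 and 117 CPM with endothelin-1, 159, 171 and 166 CPM with sacubitrilat, and 101, 49.5 and 87.9 CPM with vehicle. For both genes the groups descended from sacubitrilat to endothelin-1 to vehicle to both compounds. The last 2 overlapped for both genes.

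At like totals GNAQ was lower with endothelin-1 than with sacubitrilat by edgeR (-0.36 ± 0.12, SE, adjusted p = 0.0443, lower in 3 of 3 libraries). That call lay at the threshold. It was lost with the replicate number as a block (adjusted p = 0.0917), without a filter (adjusted p = 0.185), in DESeq2 (adjusted p = 0.138) and limma-voom (adjusted p = 0.323), and without any 1 of 9 libraries, among them endothelin-1 replicate 2 (-0.29, adjusted p = 0.177) and sacubitrilat replicate 3 (-0.32, adjusted p = 0.153). GNA11 gave -0.19 in the same comparison, with a 95% interval of -0.42 to 0.04, although its libraries did not overlap. GNAQ made up 36.4% of the summed counts of the pair with endothelin-1 and 39.2% with sacubitrilat, with exact 95% intervals of 33.5% to 39.4% and 36.5% to 42%, which overlap.

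Against vehicle GNAQ was higher with endothelin-1 (1.08 ± 0.31, adjusted p = 0.0101) and with sacubitrilat (1.44 ± 0.30, adjusted p = 5.29e-04). GNA11 was higher with sacubitrilat (0.81 ± 0.24, adjusted p = 0.0146), and gave 0.61 ± 0.25 with endothelin-1 (adjusted p = 0.0649). With both compounds GNAQ was lower than with endothelin-1 (-1.44 ± 0.40, adjusted p = 0.00513) and than with sacubitrilat (-1.80 ± 0.38, adjusted p = 3.55e-04), and so was GNA11 (-1.18 ± 0.32, adjusted p = 0.00449, and -1.38 ± 0.32, adjusted p = 8.96e-04). The GNA11 call with sacubitrilat against vehicle was lost without vehicle replicate 2 (0.67, adjusted p = 0.0503) and, with the genes of the full fit kept, without vehicle replicate 3 (0.78, adjusted p = 0.0691). In that setting the GNA11 call of both compounds against endothelin-1 was lost without replicate 1 of both compounds (-0.90, adjusted p = 0.0508). The GNA11 value with endothelin-1 passed with RLE scaling (adjusted p = 0.0392), in DESeq2 (adjusted p = 0.0379), without a filter (adjusted p = 0.0146) and without vehicle replicate 1 (1.15, adjusted p = 0.0152), endothelin-1 replicate 3 (adjusted p = 0.047) or any 1 library with both compounds. A processed pseudogene of GNAQ lies on chromosome 2, and 2 genes overlap GNA11 in antisense.

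PLCB1 (ENSG00000182621, chr20:8077251-8968360, plus strand) encodes a phospholipase C beta enzyme that Gq subunits activate. Its level was 11.5, 6.30 and 7.41 CPM with both compounds, 17.4, 21.7 and 23.3 CPM with endothelin-1, 15.4, 12.6 and 12.8 CPM with sacubitrilat, and 18.9, 0 and 5.86 CPM with vehicle. The endothelin-1 libraries lay above the sacubitrilat libraries with no overlap, and the vehicle libraries spread from 0 to 18.9 CPM. PLCB1 was higher with endothelin-1 than with sacubitrilat by 0.73 ± 0.23 (SE, adjusted p = 0.0341 by edgeR, 3 of 3 libraries). The call was lost with the replicate block (adjusted p = 0.0601), in DESeq2 (adjusted p = 0.128), in limma-voom (adjusted p = 0.125) and without a filter (adjusted p = 0.107). With the genes of the full fit kept it was lost without endothelin-1 replicate 2 (0.70, adjusted p = 0.0998) or 3 (0.63, adjusted p = 0.172), or sacubitrilat replicate 2 (0.73, adjusted p = 0.0701) or 3 (0.68, adjusted p = 0.143). No other comparison called it, and with 3 and 7 counts the groups with both compounds and with vehicle allow ratios from 0.107 to 2.80.

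AGT (ENSG00000135744, chr1:230702523-230714297, minus strand) encodes angiotensinogen, the precursor of all angiotensin peptides. Its level was 11.5, 31.5 and 29.6 CPM with both compounds, 22.5, 16.3 and 18.0 CPM with endothelin-1, 3.67, 3.94 and 6.14 CPM with sacubitrilat, and 3.16, 0 and 0 CPM with vehicle. Every library with endothelin-1, alone or with sacubitrilat, lay above every library without it. The sums were 10, 95, 22 and 1 counts in the same order, so the levels with both compounds and with vehicle rest on few counts. Pooled over 3 libraries, AGT stood at 26.2 CPM with both compounds (exact 95% counting interval 12.6 to 48.3), 19.1 with endothelin-1 (15.5 to 23.3), 4.80 with sacubitrilat (3.01 to 7.27) and 1.76 with vehicle (0.0445 to 9.80).

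At like totals AGT was higher with endothelin-1 than with sacubitrilat by 2.08 ± 0.30 on the log2 scale (SE, adjusted p = 3.15e-06 by edgeR, 3 of 3 libraries), a 4.22-fold difference. The ratio of counts was 3.98, with a 95% interval of 2.48 to 6.65. With both compounds against vehicle the value was 3.79 ± 1.07, with an unadjusted p of 0.00106 and an adjusted p of 0.126, so it was not called. The ratio of counts there was 14.9 with an interval of 2.12 to 647. Averaged over the presence of sacubitrilat, a contrast in which large and small libraries stand equally on both sides, AGT was higher with endothelin-1 by 2.93 ± 0.54 (adjusted p = 0.00114), against 1.83% of all genes called. It was the 1 member called of 7 in that contrast, and in the matching contrast for sacubitrilat none was called by edgeR, DESeq2 or limma-voom (0.259% of all genes by edgeR), with ECE1 (-0.76 ± 0.24) alone at an unadjusted p under 0.05 (0.00317, adjusted p = 0.179).

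AGT was also higher with endothelin-1 than with vehicle (3.37 ± 0.89, adjusted p = 0.00505, ratio of counts 10.8 with an interval of 1.90 to 433) and with both compounds than with sacubitrilat (2.50 ± 0.63, adjusted p = 0.00206, ratio 5.47 with an interval of 2.31 to 12). The call of both compounds against sacubitrilat was lost without replicate 2 of both compounds (2.07, adjusted p = 0.0642). Both compounds against endothelin-1 gave 0.42 with a 95% interval of -0.56 to 1.40, and sacubitrilat against vehicle gave 1.29 with an interval of -1.08 to 3.66. When each of the 6 single-compound libraries was left out in turn, with the genes of the full fit kept, the value of endothelin-1 against sacubitrilat ranged from 1.92 to 2.41 with an adjusted p of at most 2.01e-04. AGT passed the filter only through libraries given endothelin-1, where its level was high. Without the filter the averaged endothelin-1 contrast gave 2.81 for AGT (adjusted p = 5.4e-04 by edgeR).

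The direction for AGT follows the titles and treatment labels. If the conflicting description line held instead, the groups would change places, sacubitrilat would stand above endothelin-1 for AGT (-2.08 for endothelin-1 against sacubitrilat), and the contrast averaged for endothelin-1 would give 0.86 (adjusted p = 0.672) against 2.93 for sacubitrilat. Endoderm and liver markers, 8 genes, summed to 452 to 596 CPM with both compounds, 54.4 to 84.1 with endothelin-1, 49.2 to 60.4 with sacubitrilat and 200 to 680 with vehicle. At like totals the median sum was 67.5 CPM with endothelin-1 and 54.4 with sacubitrilat, in the direction of AGT, and it was 466 with both compounds and 357.5 with vehicle. APOA1, the apolipoprotein A-I gene of the list, averaged 135.7 CPM with both compounds, 27.7 with endothelin-1, 19.9 with sacubitrilat and 88.8 with vehicle. APOA2 (9.19 CPM with endothelin-1, 9.28 with sacubitrilat) and ALB (0.42 and 0.59) went the other way at like totals. The other markers of the list were higher with endothelin-1 than with sacubitrilat. All 8 markers had counts in every group, and their part in the AGT values was not tested. A gene on the same strand overlaps AGT in GENCODE v29.

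**Figure D3:**
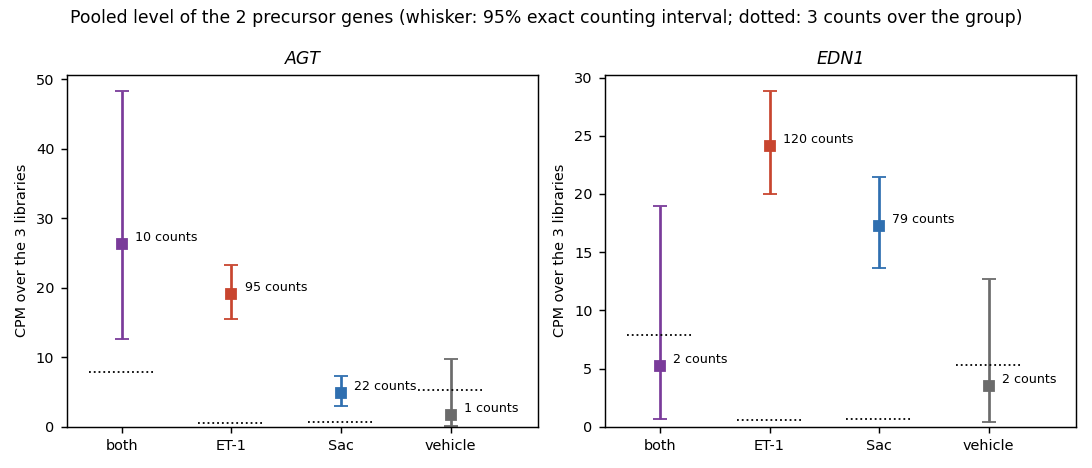
Level of AGT and EDN1 over the 3 libraries of each group (vertical axis, CPM; squares, summed counts as a share of summed totals; whiskers, exact 95% counting intervals; dotted lines, the level of 3 counts). AGT is higher in the groups with endothelin-1, at 26.2 and 19.1 CPM, than with sacubitrilat at 4.80 or vehicle at 1.76 CPM, while EDN1 rests on 2 counts with both compounds and on 2 with vehicle.

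The remaining angiotensin members were at the limit of detection. ACE (ENSG00000159640, chr17:63477061-63498380, plus strand), which converts angiotensin I to angiotensin II, had 1, 2.5, 2 and 0.5 counts with both compounds, endothelin-1, sacubitrilat and vehicle. AGTR1 (ENSG00000144891, chr3:148697784-148743008, plus strand), the type 1 receptor, had 0 counts in all 12 libraries, which allows up to 7.87 CPM with both compounds, 0.603 with endothelin-1, 0.655 with sacubitrilat and 5.28 with vehicle (3 counts over the group). Over each group of large libraries this limit is under 1 CPM and covers counting error only. No test was made of either gene.

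**Figure D4:**
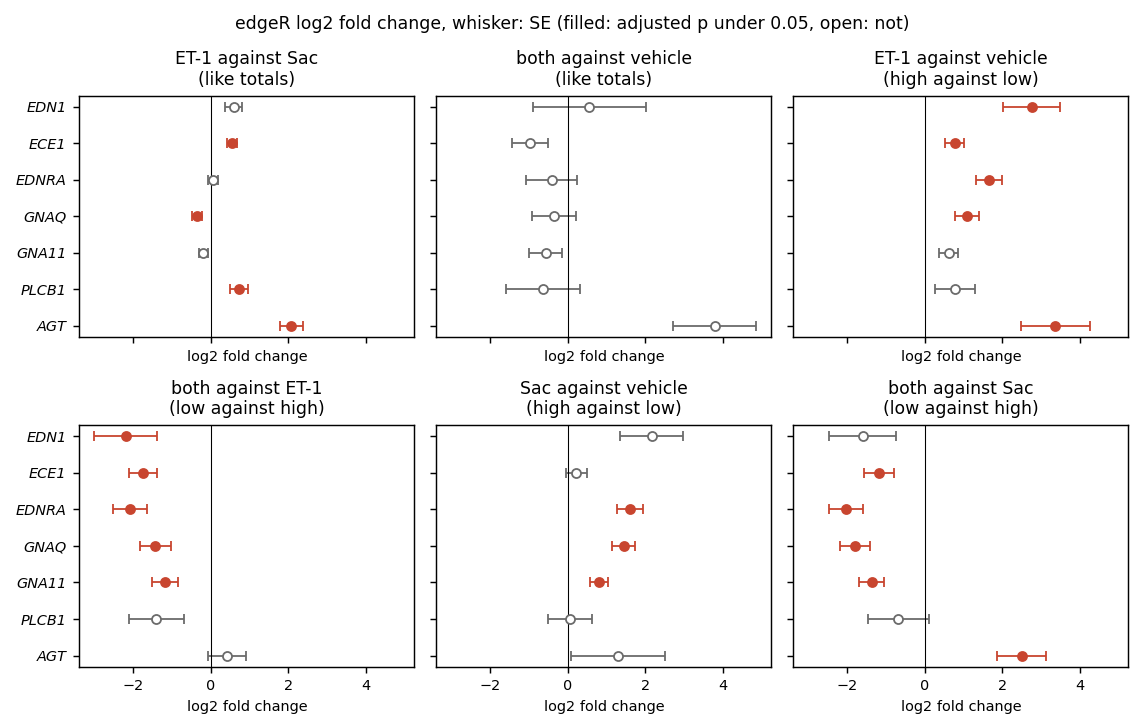
Log2 fold change of the 7 tested members in 6 pairwise comparisons (horizontal axis; points, edgeR estimate; whiskers, SE; filled points, adjusted p under 0.05). The upper row starts with the comparisons at like totals, where AGT is at 2.08 and 3.79, and the others set large libraries against small ones.

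Whether the 2 compounds acted together other than additively on the log2 scale was asked with the interaction, which is positive when endothelin-1 had a higher log2 fold change in the presence of sacubitrilat than in its absence. It was below 0 for all 7 tested members, with a median of -1.99, and the median over all genes was also below 0, at -0.43. Of the members, 5 were called lower (of all genes, 26.0% were called lower and 46.1% in either direction). The called values were -4.37 ± 1.14 for EDN1 (adjusted p = 0.00196 by edgeR), -3.69 ± 0.55 for EDNRA (adjusted p = 1.02e-06), -1.96 ± 0.46 for ECE1 (adjusted p = 6.33e-04), -2.88 ± 0.50 for GNAQ (adjusted p = 1.12e-05) and -1.99 ± 0.40 for GNA11 (adjusted p = 1.21e-04). AGT gave -0.87 ± 1.33 (adjusted p = 0.612), and PLCB1 gave -1.46 ± 0.93 (adjusted p = 0.196; -3.58, adjusted p = 0.0197, without vehicle replicate 1). This contrast sets the 6 small libraries against the 6 large ones, so the interaction and the library total cannot be told apart. EDN1 passed the count filter only through the large ones. The log2 level of GNAQ followed the log2 total over the 12 libraries with r = 0.921, that of GNA11 with 0.909, EDNRA 0.812, EDN1 0.81, ECE1 0.721, PLCB1 0.711 and AGT 0.19. These r are descriptions over libraries that share their group and depth.

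A list of 82 further genes of these pathways placed the members among their partners, and 52 of the 82 were tested. With endothelin-1 against vehicle 8 were higher and 6 lower (1231 and 1365 of all 11203 genes tested), and with sacubitrilat against vehicle 7 were higher and 6 lower (8.68% and 11.2% of all genes). With both compounds 8 were higher and 12 lower than with endothelin-1 (16.6% and 17.8% of all genes), and 9 were higher and 12 lower than with sacubitrilat (17.2% and 17.8%). With both compounds against vehicle none was called by edgeR, DESeq2 or limma-voom, and 11 had an unadjusted p under 0.05. Endothelin-1 against sacubitrilat called 6 higher and 1 lower by edgeR (6.44% and 4.78%). In that comparison DESeq2 called 3 of the 52 and limma-voom 3. The median log2 fold change of the 52 was 0.17 with endothelin-1 against vehicle and -0.06 with endothelin-1 against sacubitrilat, beside 0.10 and -0.01 over all genes.

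Among peptide-processing genes, FURIN, a protease that trims the endothelin precursor, stood at 29.7 CPM with both compounds, 169.2 with endothelin-1, 104.2 with sacubitrilat and 36.3 with vehicle (means of 3 libraries). It was higher with endothelin-1 than with sacubitrilat at like totals (0.79 ± 0.11, adjusted p = 2.16e-06 by edgeR) and than with vehicle (2.44 ± 0.30, adjusted p = 7.34e-08), and with both compounds it was lower than with endothelin-1 (-2.45 ± 0.35, adjusted p = 9.12e-07). ANPEP, an aminopeptidase that trims angiotensin III, had 7, 6, 3 and 9 counts and went the other way: it was lower with endothelin-1 (-3.54 ± 0.84, adjusted p = 0.00183) and with sacubitrilat (-4.40 ± 0.92, adjusted p = 6.10e-04) than with vehicle. ANPEP passed the count filter only through small libraries, where its level was high but rests on few counts. CTSD, the lysosomal protease cathepsin D, was higher with both compounds than with endothelin-1 (1.52 ± 0.18, adjusted p = 2.17e-08) or sacubitrilat (1.84 ± 0.18, adjusted p = 5.34e-10). Against vehicle it was lower with sacubitrilat (-1.28 ± 0.18, adjusted p = 2.20e-06) and with endothelin-1 (-0.97 ± 0.18, adjusted p = 1.1e-04). PREP, the prolyl oligopeptidase, was higher with endothelin-1 than with vehicle (1.43 ± 0.51, adjusted p = 0.0359). Apart from FURIN at like totals, these comparisons set large libraries against small ones, where compound and total cannot be told apart. MME, the gene of neprilysin, the target of sacubitrilat, had 3, 20, 21 and 6 counts and was too low to test; the ratio of endothelin-1 to sacubitrilat was 0.877 with an interval of 0.451 to 1.70.

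Of 20 tested genes of G proteins and their regulators, 6 were higher and none lower with endothelin-1 than with vehicle, beside 1231 and 1365 of all 11203 genes. With sacubitrilat against vehicle 6 were higher and none lower, beside 8.68% and 11.2% of all genes. RGS3, which speeds the switching off of Gq and Gi, was higher with endothelin-1 than with sacubitrilat (0.81 ± 0.15, adjusted p = 1.71e-04) and than with vehicle (1.44 ± 0.36, adjusted p = 0.00302). ARRB1, a beta-arrestin, was higher with endothelin-1 than with sacubitrilat (0.86 ± 0.26, adjusted p = 0.0229), and GRK5, a receptor kinase, was higher with endothelin-1 than with vehicle (1.53 ± 0.50, adjusted p = 0.0223). With sacubitrilat RGS5 (1.19 ± 0.23), GNAI2 (1.05 ± 0.20) and the gamma subunit gene GNG5 (1.00 ± 0.22) were higher than with vehicle. These genes were not particular to sacubitrilat, since their levels in the endothelin-1 group also passed the threshold above vehicle. The values there were 1.07 ± 0.24 for RGS5 (adjusted p = 8.83e-04 by edgeR), 0.99 ± 0.20 for GNAI2 (adjusted p = 2.67e-04) and 0.76 ± 0.22 for GNG5 (adjusted p = 0.0099). With both compounds 9 of the 20 were lower than with endothelin-1 and 9 lower than with sacubitrilat, beside 17.8% of all genes in each comparison. Among them were GNAI3 (-1.91 ± 0.45 and -1.95 ± 0.44) and GNG5 (-1.72 ± 0.31 and -1.96 ± 0.30). These counts of the 20 set large libraries against small ones, where compound and total cannot be told apart. At like totals 3 of the 20 were higher and none lower with endothelin-1 than with sacubitrilat, beside 6.44% and 4.78% of all genes. None of the 20 was called with both compounds against vehicle.

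Among effectors, MARCKS, a substrate of protein kinase C, stood at 1101 CPM with both compounds, 232.3 with endothelin-1, 578.9 with sacubitrilat and 1389 with vehicle. It was lower with endothelin-1 than with sacubitrilat at like totals (-1.20 ± 0.17, adjusted p = 2.71e-06 by edgeR) and than with vehicle (-2.44 ± 0.19, adjusted p = 1.97e-12). It was also the 1 gene of the 52 called in the averaged endothelin-1 contrast (-0.72 ± 0.13, adjusted p = 9.91e-04), where 14 had an unadjusted p under 0.05 and DESeq2 called 3. ITPR1, an IP3 receptor of calcium stores, was higher with endothelin-1 than with sacubitrilat (0.81 ± 0.20, adjusted p = 0.00476). ITPR3, a related receptor, was lower than vehicle with endothelin-1 (-2.92 ± 0.75, adjusted p = 0.00374) and with sacubitrilat (-2.83 ± 0.74, adjusted p = 0.00552). It had 2, 13, 14 and 12 counts with both compounds, endothelin-1, sacubitrilat and vehicle. ITPR3 passed the count filter only through the vehicle libraries, where its level was high. ROCK2 was lower than vehicle with endothelin-1 (-1.0 ± 0.20, adjusted p = 3.30e-04) and with sacubitrilat (-0.83 ± 0.20, adjusted p = 0.00248). PLCE1, phospholipase C epsilon, was higher with both compounds than with endothelin-1 (1.08 ± 0.40, adjusted p = 0.0346) and than with sacubitrilat (1.11 ± 0.40, adjusted p = 0.0312). These comparisons of ITPR3, ROCK2 and PLCE1, and that of MARCKS with vehicle, set large libraries against small ones. There compound and total cannot be told apart. PRKD1, protein kinase D1, had 0 counts with both compounds, beside 53 with endothelin-1 and 82 with sacubitrilat. The upper 95% limit of its count ratio was 0.941 against endothelin-1 and 0.554 against sacubitrilat. With 3 counts over the group as the floor, the differences were 1.35-fold and 2.27-fold, without counting error in the larger counts.

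The genes whose level moved most like each of 6 members over the 12 libraries were ranked by Pearson's r of log2 CPM among about 6920 genes with a mean of at least 20 CPM. For AGT they were RHBDD2 (r = 0.907), CAVIN1 (0.883) and HSF1 (0.882). For GNA11 they were CALM3 (0.989), COL5A2 (0.982) and DDX17 (0.981), and for GNAQ SIPA1L2 (0.984), P3H1 (0.976) and HMG20B (0.972). EDN1 was nearest to FZD1 (0.96), UQCRH (0.951) and SPIN1 (0.948), ECE1 to NARS1 (0.974), ATP13A3 (0.953) and PLXNB2 (0.945), and PLCB1 to PROX1 (0.98), SLC25A23 (0.965) and ANKRD50 (0.96). Among the members, GNAQ and GNA11 had r = 0.906 and EDNRA and PLCB1 0.908, while AGT had no r above 0.462 with any other member. The points of each r share their groups and the split in library totals.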

How the data were processed

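Per the labels' protocols, poly(A) RNA was primed with barcoded poly(dT) that also held a unique molecular identifier and made into stranded 3′-end libraries. Per the submitters' processing notes, fastp 0.24.0, featureCounts and GRCh38 were used; the aligner, the annotation release, the strand setting and the use of the identifiers are not given in the sources. The deposited table gives estimated counts, some of them fractional, and the deposited CPM values equalled the counts divided by library totals to within 1.46e-11. Of its features, 92 spike-ins with 0 counts were left out. Library totals ran from 80844 to 1953122, and counting error alone is covered by the intervals and by the 3-count floor.

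Counts were rounded to whole numbers and fitted in 1 model of all 12 libraries with no term but group, by edgeR's quasi-likelihood test (edgeR 4.0.16 in R 4.3.3; filterByExpr, TMM scaling, 11203 genes). Benjamini-Hochberg adjustment ran over all genes tested, and 0.05 was the threshold. SE is the absolute log2 fold change over the root of F, and 95% intervals of fold changes use it. Ratios of counts have exact conditional intervals, and shares exact Clopper-Pearson intervals. The 4 groups hold 3 biological replicates each; what made them separate is not described further, so p-values measure the spread between these samples. The batch label repeats the replicate number. Same-numbered libraries had deviations from their group means with r from -0.218 to 0.0577 over 18 pairs, none over 0.1, so the numbers were not taken as pairing.

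All members were named. Of the 82 pathway genes, those named were the called genes with the largest change, up to 4 in each direction and comparison at a mean of at least 5 CPM, and MME. The members, the gene lists and the tests were chosen with earlier results of these data known. The alternatives were RLE scaling, no filter, DESeq2 1.42.0, limma-voom (limma 3.58.1), a replicate block, the compared groups alone, thinning to 80000 counts, leaving out libraries, and an exchange of the endothelin-1 and sacubitrilat labels. The averaged contrasts and the fits that kept the genes of the full fit were added later. The genes nearest in level to EDNRA are not reported here. Sequences were read from GENCODE v29 and RefSeq.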

Additional observations from a re-analysis of the deposited data

Results flagged for a closer look

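The log2 interaction of the 2 compounds differed from 0 for 5 members by edgeR, meaning that the difference made by endothelin-1 was not the same with and without sacubitrilat: EDN1 (-4.37), EDNRA (-3.69), GNAQ (-2.88), GNA11 (-1.99) and ECE1 (-1.96). Of the pathway list, the interaction was positive for ANPEP (8.16), MARCKS (3.45), CTSD (2.80) and ROCK2 (1.86). It was negative for PRKD1 (-8.51), FURIN (-4.10), PLCB2 (-2.83) and GNAI2 (-2.76). ANPEP rests on 7, 6, 3 and 9 counts with both compounds, endothelin-1, sacubitrilat and vehicle, and PRKD1 has 0 counts with both compounds, so their fitted sizes are not bounds. EDN1 passed the count filter only through large libraries, and ANPEP only through small ones. Of all genes tested, 46.1% were called in this contrast, which sets small libraries against large ones, and interaction and library total cannot be told apart.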

How the results depend on the processing

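Member calls shrank where counts were removed. After thinning every library to 80000 counts only GNA11 passed the filter, and the number of members called was 0 for endothelin-1 against vehicle, both compounds against endothelin-1, sacubitrilat against vehicle, endothelin-1 against sacubitrilat and the averaged endothelin-1 contrast, and 1 for both compounds against sacubitrilat and for the interaction. With the genes of the full fit kept, thinning gave 1 (EDNRA, 2.21) with endothelin-1 against vehicle, 1 for both compounds against sacubitrilat, 2 for the interaction and 0 for those other comparisons, and ECE1 turned to -0.0094 with endothelin-1 against vehicle and -0.0445 against sacubitrilat. Endothelin-1 against sacubitrilat called 2 members without a filter, 2 in DESeq2, 2 with the replicate block and 1 in limma-voom, against 4. With the 2 labels exchanged, 3 members were called for endothelin-1 against vehicle, 5 for sacubitrilat against vehicle, 0 and 1 in the averaged contrasts of endothelin-1 and sacubitrilat, and the values of endothelin-1 against sacubitrilat turned to -0.55 for ECE1, 0.36 for GNAQ, -2.08 for AGT and -0.73 for PLCB1. Leaving out 1 library with the filter applied anew gave 3 to 6 members for endothelin-1 against vehicle, 4 to 5 for both compounds against endothelin-1, 2 to 4 for sacubitrilat against vehicle, 3 to 5 for both compounds against sacubitrilat, 1 to 4 for endothelin-1 against sacubitrilat, 4 to 6 for the interaction, 0 to 1 for the averaged endothelin-1 contrast and 0 to 0 for both compounds against vehicle and the averaged sacubitrilat contrast. With the genes kept these ranges were 4 to 5, 4 to 5, 2 to 4, 4 to 5, 2 to 5, 5 to 6, 1 to 1 and 0 to 0. Without an endothelin-1 or sacubitrilat library the filter dropped AGT, EDN1 and PLCB1. Of 1896 single-member values, 1706 kept their direction and side of the threshold, 74 changed sign without being called in either fit, 80 lost their call, 30 gained one and 6 reversed. Without a filter the median of all genes shifted by -0.48 for both compounds against endothelin-1, where AGT then gave -0.06, and by 0.25 for endothelin-1 against vehicle. The replicate block changed no member call other than those of EDN1, GNAQ and PLCB1 given beside their values. Depth limits EDNRB, ACE, AGTR1 and every value with both compounds or vehicle.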

Other observations

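EDN3, the gene of another endothelin peptide, and PLCB4, another phospholipase C beta gene, were chosen after their values were seen. EDN3 had 0, 11, 11 and 0 counts in the groups with both compounds, endothelin-1, sacubitrilat and vehicle, a ratio of endothelin-1 to sacubitrilat of 0.921 with an interval of 0.362 to 2.34. PLCB4 stood at 79.2, 59.0, 52.4 and 99.3 CPM in the same groups, and was lower with sacubitrilat than with vehicle (-0.86 ± 0.26, adjusted p = 0.0173 by edgeR) where PLCB1 was not called.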
